A study of Homo sapiens with 6 samples.

Results

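The genes described here are 10 regulators of entry into the cell cycle, the cyclin D, CDK4/6 and RB pathway: CCND1, CCND3, CDK2, CDK4, CDK6, CDKN1B, CDKN2C, RB1, RBL2 and MYC. They were taken by symbol from a table of 26364 genes, in which all 10 were found, and all 10 passed the filter on low values that left 16032 genes for testing. They were measured by RNA-seq in T47D cells, an established human breast cancer line of luminal A type. The first group, siELF5, received the siRNA with catalogue number AM16708 against ELF5, a transcription factor of the ETS family that acts in luminal cells of the mammary gland, and the second, siNC, received the control siRNA with catalogue number 4390846. Each group held 3 libraries of RNA taken 48 h after transfection. Each group thus rests on 1 siRNA product, so a difference compares both products as well as both targets. The labels do not state whether replicates came from separate cultures, so the spread behind each p-value may be technical.

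D-type cyclins bind and activate CDK4 and CDK6, which phosphorylate the retinoblastoma protein RB1 and its relatives. Phosphorylated RB1 releases the E2F transcription factors, which switch on genes for DNA replication, and CDK2 with its E-type and A-type cyclins continues the phosphorylation. Inhibitors of the INK4 kind, such as CDKN2C, bind CDK4 and CDK6, and those of the CIP/KIP kind, such as CDKN1B, bind cyclin-CDK complexes. MYC is a transcription factor that promotes growth and cell cycle entry. In luminal breast cancer cells estrogen acts through this pathway, and drugs that inhibit CDK4 and CDK6 are used against such tumours.

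Of the 10 genes, 5 rose and 1 fell in siELF5 libraries. CCND1 rose most, followed by CDK6, CDK2, RBL2 and RB1, and MYC fell. CCND3, CDK4, CDKN1B and CDKN2C were not called. Among all genes tested 47.1% passed it, 23.8% higher and 23.3% lower, so a share of 6 in 10 is not far from that of the whole table. The siELF5 and siNC libraries did not overlap for 7 of the 10 genes, the 6 that passed and CDK4, against 55.9% of all genes tested. The test was limma's on log2(normalised read count + 1), and an adjusted p under 0.05 over all genes tested counts as passing. A normalised read count is the authors' read count for a gene divided by a size factor of its library.

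The libraries held 72.4 M to 83.7 M assigned reads in siELF5 and 66.8 M to 83.3 M in siNC. The 10 genes had from 445 to 29191 reads in a library. Counting error weighs most on CDK6, which had 445 to 716. ELF5 itself fell to 28.1% of the siNC mean, with 3678, 3725 and 3638 normalised read counts in siELF5 libraries and 13225, 13148 and 12910.2 in siNC libraries. The summed level of 8 luminal markers (ESR1, PGR, GATA3, FOXA1, KRT8, KRT18, KRT19 and EPCAM) was between 612503 and 635289.6 in siELF5 and between 668479 and 716924 in siNC, and the lowest single value was 14004, of EPCAM in siELF5. The lower sum rests on the keratins KRT8 and KRT18 (log2 fold changes -0.41 and -0.45), which fell, while ESR1 (0.45), PGR (0.22), GATA3 (0.15) and FOXA1 (0.31) rose and KRT19 and EPCAM were not called. Of 5 basal or myoepithelial markers 3 reached a mean of 10. The summed level of all 5 was 1579 to 1687 in siELF5 and 1158 to 1245 in siNC, and KRT5 and KRT14 stayed at or below 16.4 in every library. Most of the higher sum was ACTA2, with a mean of 739 in siELF5 and 356 in siNC. TP63 also rose (means 202 and 162), and MYLK was not called (654 and 664). Of 9 fibroblast, endothelial and leukocyte markers 3 reached a mean of 10. The summed level of all 9 was 3406 to 3969 in siELF5 and 4195 to 5373 in siNC, most of it COL1A1. CDH5 and PTPRC had no read in any siELF5 library and at most 3.69 normalised read counts in siNC libraries. The part of these markers in the results was not tested, and in such bulk RNA fewer cells of a type and less RNA per cell cannot be told apart. The libraries also differed in how well they held GC-rich genes. A GC score of each library, the median deviation of the most GC-rich of 10 equal classes of genes less that of a middle class, was 0.22 to 0.28 in siELF5 and -0.41 to -0.07 in siNC on the log2 scale. This score cannot be told apart from the siRNA for a gene that follows it, so values from the same limma model with the score added, called score-adjusted here, stand beside the results on the 10 genes that it changes. Among the luminal markers GATA3 was at -0.16 in that model (limma adjusted p = 0.268), the other direction. Of the 3 others that rose, ESR1 passed there at 0.44 (limma adjusted p = 0.00103). PGR at 0.24 and FOXA1 at 0.16 did not pass (limma adjusted p = 0.0612 and 0.321).

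The promoter windows that bear on these genes are shown first, because ELF5 and MYC bind known motifs and both differed in level. They run from 250 bases before to 50 bases after a gene's start (RefSeq, GRCh38.p14) and were available for 7 of the 10 genes: CCND3, CDK4, CDK6, CDKN1B, CDKN2C, RB1 and RBL2. The windows were searched on both strands for the ETS core GGAAG, the longer ETS sequence CCGGAAG (which contains the core), the E2F sequences TTTCCCGC and TTTGGCGC, and the E-box CACGTG that MYC binds with its partner MAX. CDK4, a MYC target, is shown for its E-boxes at chr12:57752261-57752560 on the minus strand. CDK6, which rose, is shown at chr7:92836524-92836823 on the minus strand, and RBL2, which also rose, at chr16:53434221-53434520 on the plus strand. Each reads 5′ to 3′ along the gene, with matches to GGAAG (or CTTCC, its reverse complement) and to CACGTG in capitals. 
CDK4: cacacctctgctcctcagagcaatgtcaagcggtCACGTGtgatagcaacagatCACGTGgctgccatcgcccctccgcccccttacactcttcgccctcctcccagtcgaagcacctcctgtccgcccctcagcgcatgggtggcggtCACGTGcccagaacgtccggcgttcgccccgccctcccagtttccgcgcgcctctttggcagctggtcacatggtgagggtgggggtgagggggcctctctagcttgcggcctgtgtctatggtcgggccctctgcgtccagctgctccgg
CDK6: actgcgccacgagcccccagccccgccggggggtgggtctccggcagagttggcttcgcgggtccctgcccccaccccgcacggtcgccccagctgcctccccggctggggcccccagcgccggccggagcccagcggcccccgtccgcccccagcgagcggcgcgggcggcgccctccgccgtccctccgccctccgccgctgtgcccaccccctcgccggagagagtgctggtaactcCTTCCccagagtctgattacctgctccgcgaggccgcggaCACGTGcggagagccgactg
RBL2: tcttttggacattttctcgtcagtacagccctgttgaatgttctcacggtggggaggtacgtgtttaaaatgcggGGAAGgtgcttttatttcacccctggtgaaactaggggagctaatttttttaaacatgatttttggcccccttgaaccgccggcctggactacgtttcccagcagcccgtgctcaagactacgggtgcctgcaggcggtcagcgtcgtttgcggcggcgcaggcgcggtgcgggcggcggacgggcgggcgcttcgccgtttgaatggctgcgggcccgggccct

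The CDK4 window held 3 E-boxes and no ETS core. The CDK6 window shown held 1 of each, and the RBL2 window shown held 1 ETS core and no E-box. The 7 genes have 13 windows, of which 4 held the E-box (in CDK4, CDKN2C and CDK6, whose other window held none) and 11 the ETS core. The longer ETS sequence was in 1 window, of CCND3, and the E2F sequences in none. Among 35116 promoter windows of all genes, 7.26% held the E-box, 71.9% the ETS core, 10.3% the longer ETS sequence and 2.27% either E2F sequence, so a match to the ETS core is common. These are matches of letters in a window, and binding was not measured.

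The D-type cyclins moved apart. CCND1, the cyclin D1 gene and the main D-type cyclin of breast epithelium, had 26436, 27106 and 25308 normalised read counts in siELF5 libraries, against 16916, 17347 and 18206 in siNC libraries. Every siELF5 library stood above every siNC library. CCND1 averaged 26283 ± 908 in siELF5 and 17490.0 ± 657 in siNC (SD, n = 3 each), so siELF5 was at 150.3% of siNC and the log2 fold change was 0.59 (SE 0.036, limma adjusted p = 7.46e-08). Of all genes tested 13.4% had a larger change in either direction. In the score-adjusted model its log2 fold change was 0.42 (limma adjusted p = 0.0024). ORAOV1, which lies on the opposite strand and shares 10.3% of CCND1's exon bases in GENCODE 29 (there LTO1), had a log2 fold change of -0.05 (limma adjusted p = 0.434).

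CCND3, the cyclin D3 gene, had 5226, 4849 and 4848 normalised read counts in siELF5 libraries and 4437, 4965 and 5152 in siNC libraries, and the groups overlapped. Its log2 fold change was 0.04, with a 95% interval from -0.08 to 0.16 (limma adjusted p = 0.598), so a change of CCND1's size lies outside the interval. The spread among siNC libraries, a coefficient of variation of 7.64%, was the widest of the 10 genes. In the score-adjusted model the log2 fold change of CCND3 was -0.25 (limma adjusted p = 0.19).

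Per kilobase of transcript CCND1 made up 73.8%, 75.7% and 74.4% of the summed level of CCND1 and CCND3 in siELF5 libraries, against 67.9%, 66% and 66.3% in siNC libraries. The difference was 7.86 percentage points (exact permutation test, two-sided, p = 0.1, the smallest that 3 against 3 libraries allow). The summed level of both cyclins was 8180.5 ± 242 normalised reads per kilobase in siELF5 and 6087 ± 299 in siNC (SD, n = 3 each).

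**Figure D1:**
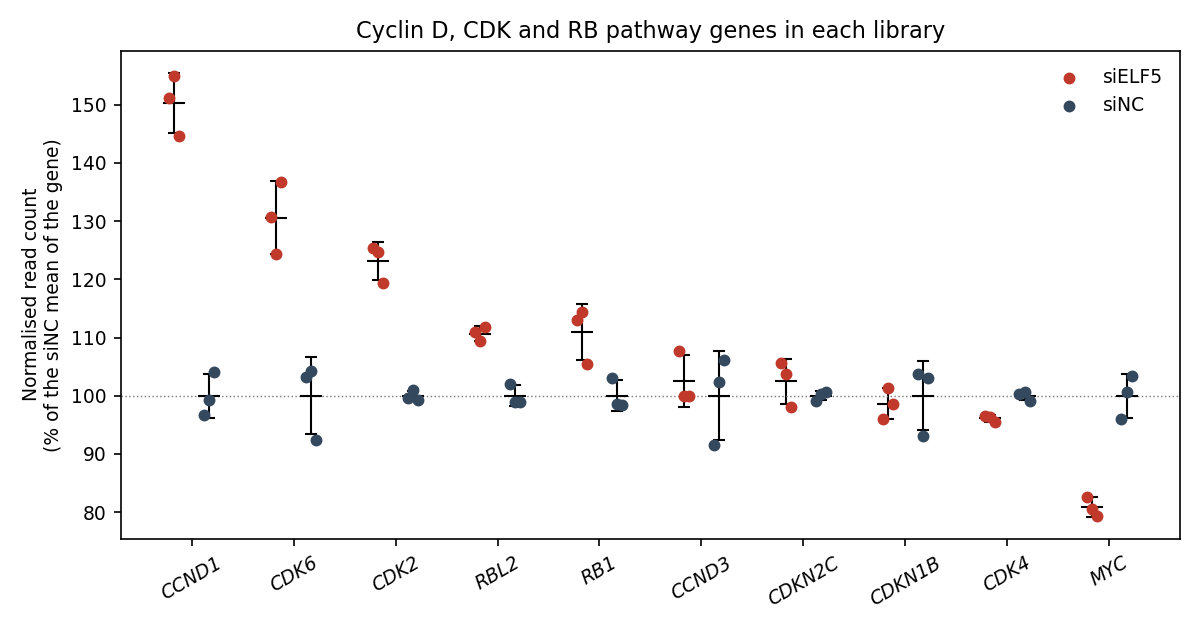
Normalised read count of each gene in each library as a percentage of the gene's siNC mean (vertical axis), with siELF5 libraries in red to the left of siNC libraries in dark blue; each point is a library, and bars give the mean and SD of 3. CCND1 stands at 150.3% in siELF5 and MYC at 80.9%, and both groups overlap for CCND3, CDKN2C and CDKN1B.

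The cyclin-dependent kinases differed among themselves. CDK6, a partner of the D-type cyclins, had 648, 616 and 678 normalised read counts in siELF5 libraries and 512, 517 and 458 in siNC libraries. The groups did not overlap, and the log2 fold change was 0.39 (SE 0.083, limma adjusted p = 0.00208). CDK6 has the fewest reads of the 10 genes and the widest standard error. In the score-adjusted model its log2 fold change was 0.63 but did not pass (SE 0.212, limma adjusted p = 0.0836). With the per-library GC correction CDK6 passed, at 0.41 (limma adjusted p = 0.000499).

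CDK2, the kinase that acts with E-type and A-type cyclins, had 10798, 10734 and 10280.3 normalised read counts in siELF5 libraries and 8583, 8698 and 8555 in siNC libraries. Every siELF5 library lay above every siNC library, and the log2 fold change was 0.30 (SE 0.033, limma adjusted p = 1.12e-05). PMEL, whose exons share 2.29% of CDK2's exon bases on the opposite strand, had a log2 fold change of 0.04 (limma adjusted p = 0.84). The antisense gene AC025162.1 shares a larger part, 14.5%, and has no row under that name in the table, so reads from it could not be told apart from those of CDK2. CDK2 also passed in the score-adjusted model, at 0.29 (limma adjusted p = 0.0432).

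CDK4, the other partner of the D-type cyclins, had 13196, 13184 and 13050.1 normalised read counts in siELF5 libraries and 13720.5, 13755 and 13559 in siNC libraries. All siELF5 values lay below all siNC values, but by little, at 96.1% of the siNC mean. The log2 fold change was -0.06 with a 95% interval from -0.12 to 0.0048 (limma adjusted p = 0.12), and with the per-library GC correction it passed, at -0.08 (limma adjusted p = 0.0258). TSPAN31 lies on the opposite strand from CDK4 and shares 43.2% of its exon bases, and the labelled kit does not mark strand, so reads of both genes could be mixed there. TSPAN31 had a log2 fold change of 0.02 (limma adjusted p = 0.814).

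Per kilobase of transcript CDK6 was a small part of the summed level of CDK4 and CDK6. Its share was 0.871%, 0.829% and 0.92% in siELF5 libraries and 0.662%, 0.668% and 0.601% in siNC libraries. The groups did not overlap, and the difference of 0.229 percentage points had an exact two-sided permutation p of 0.1, the smallest possible here. The longest annotated CDK6 transcript has 11612 bases, most of them outside the coding sequence of 978 bases, so this share depends on which length is used, and with coding lengths the difference was 1.12 percentage points.

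**Figure D2:**
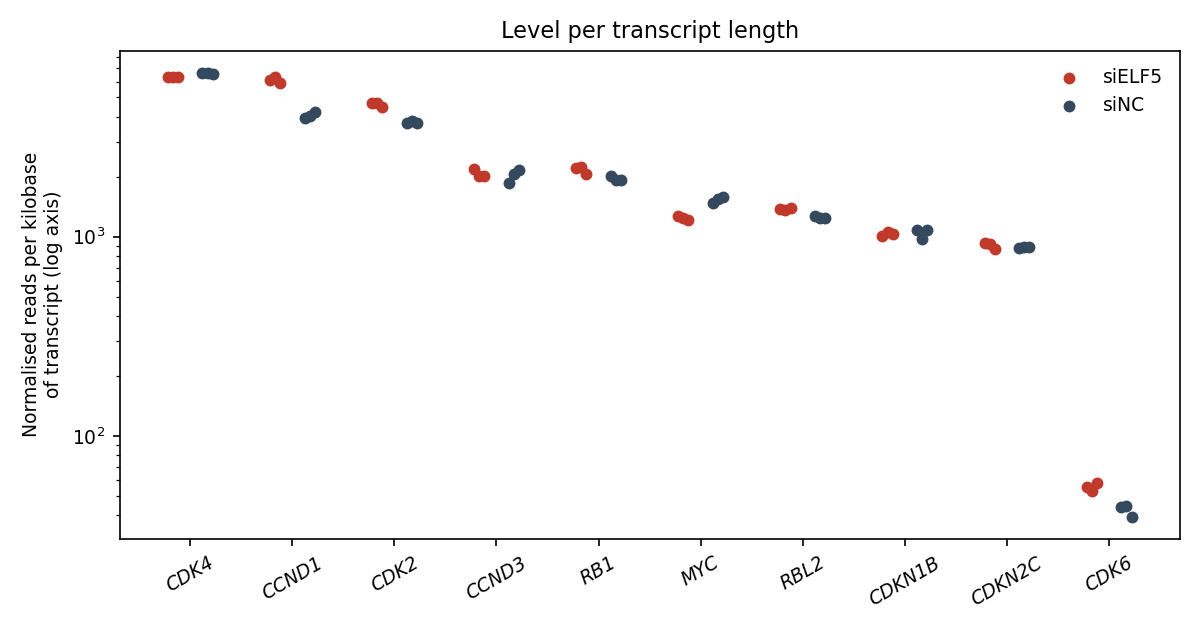
Normalised reads per kilobase of the longest GENCODE 29 transcript (vertical log axis) for each gene in each of the 3 siELF5 libraries (red, left) and 3 siNC libraries (dark blue, right), ordered by the siNC mean. CDK4 and CCND1 are the highest, overlapping in siELF5 alone, and CDK6 is the lowest, at 55.8 in siELF5 and 42.7 in siNC.

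On this per-kilobase scale the order in siELF5 libraries was CDK4 (6331 ± 39), CCND1 (6102 ± 211), CDK2 (4618 ± 123), RB1 (2174 ± 94.5), CCND3 (2078 ± 91), RBL2 (1380.1 ± 15.8), MYC (1241 ± 25.5), CDKN1B (1031 ± 28.3), CDKN2C (904 ± 34.2) and CDK6 (55.8 ± 2.65, SD, n = 3 each). CDK4 and CCND1 overlapped in siELF5, as did RB1 and CCND3, while other neighbours in the order did not. In siNC libraries CDK4 averaged 6589 ± 50.5, CCND1 4061 ± 153, RBL2 1247 ± 22.3 and MYC 1534 ± 57.8 (SD, n = 3 each). On transcript length CDK4 thus stood clear of CCND1 in siNC and not in siELF5, and MYC stood below RBL2 in siELF5 and above it in siNC. In siNC CCND3 and RB1 overlapped, as in siELF5. Neither crossing held per kilobase of coding length, a scale added after the values were seen. There CCND1 was above CDK4 in both groups (29699 ± 1026 and 14459 ± 89.1 in siELF5, 19763 ± 742 and 15048 ± 115 in siNC), and MYC was above RBL2 in both (2156 ± 44.3 and 1982 ± 22.7 in siELF5, 2665 ± 100 and 1790.3 ± 32 in siNC, SD, n = 3 each).

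The inhibitors did not pass the test. CDKN1B, the gene of p27, had 2666, 2816 and 2738 normalised read counts in siELF5 libraries and 2882, 2587 and 2863 in siNC libraries. The groups overlapped, and the log2 fold change was -0.02, with a 95% interval from -0.13 to 0.09 (limma adjusted p = 0.801). CDKN2C, the gene of the INK4 inhibitor p18, had 2705, 2657 and 2514 in siELF5 libraries and 2540.1, 2569 and 2577 in siNC libraries. Its log2 fold change was 0.03, with a 95% interval from -0.06 to 0.13 (limma adjusted p = 0.562). The per-kilobase ratio of the summed D-type cyclins to both inhibitors was 4.3, 4.21 and 4.17 in siELF5 libraries and 2.95, 3.28 and 3.25 in siNC libraries, and its groups did not overlap.

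The pocket protein genes rose by small amounts of similar size. RB1, the retinoblastoma gene, had 10608, 10749.8 and 9904 normalised read counts in siELF5 libraries and 9676, 9267 and 9236 in siNC libraries. RBL2, the gene of p130, which represses E2F genes in resting cells, had 6782, 6688 and 6842 in siELF5 libraries and 6244, 6056 and 6052 in siNC libraries. For both genes every siELF5 value was above every siNC value, and both log2 fold changes were 0.15 (SE 0.038 and limma adjusted p = 0.00619 for RB1, SE 0.034 and limma adjusted p = 0.00322 for RBL2). Of all genes tested 58.2% had a larger change than RB1. Neither passed in the score-adjusted model, which put each at 0.22 (limma adjusted p = 0.182 for RB1 and 0.151 for RBL2). With the per-library GC correction both passed, RB1 at 0.18 (limma adjusted p = 0.000127) and RBL2 at 0.21 (limma adjusted p = 3.32e-05). AC007342.6, with no row under that name in the table, shares 9.85% of RBL2's exon bases on the opposite strand. AKTIP shares 8.33% and averaged 3577 ± 86.1 in siELF5 and 3583 ± 36.3 in siNC (SD, n = 3 each). RBL2 made up 38.8% ± 1.29 of the per-kilobase sum of RB1 and RBL2 in siELF5 and 38.9% ± 0.195 in siNC (SD, n = 3 each, exact two-sided permutation p = 1).

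MYC had 3001, 2926 and 2882 normalised read counts in siELF5 libraries and 3482, 3656 and 3752 in siNC libraries. Every siELF5 library was below every siNC library. MYC averaged 2936 ± 60.4 in siELF5 and 3629.8 ± 137 in siNC (SD, n = 3 each), which put siELF5 at 80.9% of siNC, and the log2 fold change was -0.31 (SE 0.043, limma adjusted p = 9.49e-05). In the score-adjusted model it was -0.45 (limma adjusted p = 0.0114).

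**Figure D3:**
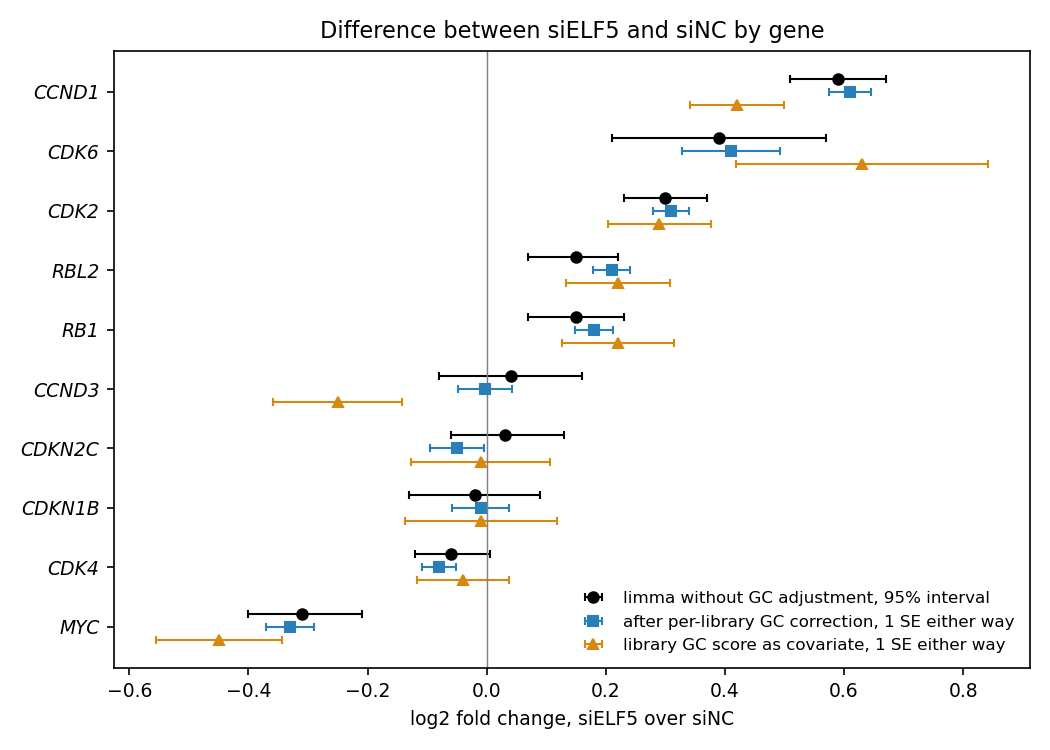
Log2 fold change of siELF5 over siNC (horizontal axis) for each gene, from limma without GC adjustment with its 95% interval (black circles), after a per-library GC correction (blue squares) and from the score-adjusted model (orange triangles), the last 2 with 1 standard error either way. CCND1, CDK6, CDK2, RBL2 and RB1 lie above 0 and MYC below 0 in all 3, while CCND3 and CDKN2C change sign.

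The authors' deposited table, made from the same libraries, gave close values, which is no independent support. Its log2 fold change was 0.59 for CCND1, 0.38 for CDK6, 0.30 for CDK2, 0.15 for RBL2 and RB1 and -0.31 for MYC, and the same 6 genes passed 0.05 in the authors' deposited table. The smallest adjusted p among the other 4 genes in the authors' deposited table was 0.158, for CDK4.

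Among the other G1 cyclins, kinases and inhibitors, 3 of 13 tested rose (23.1%), 5 fell (38.5%) and the other 5 were not called. Over all genes tested 23.8% rose and 23.3% fell, and the counts of this list and the later ones stand against those shares. CDKN1A, the gene of p21, rose, with 4148, 4319 and 4074 normalised read counts in siELF5 libraries and 3298, 3119 and 3379 in siNC libraries, and its log2 fold change was 0.36 (SE 0.044, limma adjusted p = 3.12e-05). CDKN2A, which encodes p16 and ARF from overlapping transcripts, rose as well, with 1597, 1766 and 1165 in siELF5 libraries and 654, 753 and 774 in siNC libraries. Its transcript GC content was 61.4%, and its log2 fold change of 1.03 was 0.80 after the GC correction and 0.56 in the score-adjusted model (limma adjusted p = 0.23). CDKN1C, the gene of p57, named after its values were seen, was the third, at an average of 16.9 in siELF5 and 3.9 in siNC. It passed the filter on low values only through siELF5, where it is high, so its call is no support for the count, and with a minimum mean of 50 there were 2 risen genes of 12. CDC25A, a phosphatase that activates CDK2, fell to 76.9% of its siNC mean, a log2 fold change of -0.38 (limma adjusted p = 9.48e-06). CDKN2D, the INK4 gene of p19, fell to 68.7%, with a log2 fold change of -0.54 (limma adjusted p = 5.66e-05). The INK4 genes did not move together, since CDKN2A rose and CDKN2D fell. CDKN2B, another INK4 gene, named after its values were seen, also fell, by -0.30 (limma adjusted p = 0.00632). Neither CDKN1A nor CDKN2D nor CDC25A passed in the score-adjusted model, at 0.30, -0.40 and -0.29 (limma adjusted p = 0.124, 0.216 and 0.104). Their standard errors there were 0.111, 0.184 and 0.103. After the GC correction all of them passed, at 0.28, -0.77 and -0.36 (limma adjusted p = 5.91e-05, 5.95e-07 and 6.65e-07). With equal column totals 4 genes of this list rose and 4 fell, as with quantile scaling, and after the GC correction 4 rose and 5 fell.

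Of the 14 genes for turnover of G1 regulators, 5 fell (35.7%, against 23.3% of all genes tested) and 9 were not called. Their median absolute log2 fold change was 0.06, against 0.19 over all genes tested. USP2, a deubiquitinase known to stabilise cyclin D1, fell to 71.7% of its siNC mean, and its log2 fold change was -0.48 (SE 0.069, limma adjusted p = 9.67e-05). GSK3B, a kinase that marks cyclin D1 for export and degradation, had a log2 fold change of -0.20 (limma adjusted p = 0.000411). DDB1, an adaptor of CUL4 ubiquitin ligases, was at -0.15 (limma adjusted p = 0.00273), and SKP2, which targets p27 for degradation, at -0.10 (limma adjusted p = 0.0169). None of these 4 passed in the score-adjusted model, with USP2 at -0.55, GSK3B at -0.06, DDB1 at -0.07 and SKP2 at -0.11 (limma adjusted p = 0.0658, 0.736, 0.673 and 0.503). After the GC correction all 4 passed, in the same order at -0.53, -0.15, -0.17 and -0.07 (limma adjusted p = 8.4e-06, 0.000368, 9.76e-05 and 0.0469). The fifth gene that fell was CUL4A, named after its values were seen. Without siNC replicate 2, 3 genes of this list fell. With quantile scaling 2 fell and 1 rose, and with equal column totals 3 fell and 1 rose.

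Of the 17 RB family partners, E2F factors and DREAM complex genes, 1 rose, 9 fell (52.9%) and 7 were not called. The list median was -0.13, against 0.0015 over all genes tested. E2F5, a repressive factor that works with p130, had 2050.3, 2058 and 1910.2 normalised read counts in siELF5 libraries and 2740.2, 2641 and 2704 in siNC libraries. Its log2 fold change was -0.43 (SE 0.048, limma adjusted p = 1.39e-05). E2F8, a repressor, had a log2 fold change of -0.34 (limma adjusted p = 0.000153) and LIN52, a DREAM subunit, of -0.30 (limma adjusted p = 0.000219). E2F7, the other atypical repressor, was the gene that rose, by 0.29 (SE 0.034, limma adjusted p = 2.29e-05). E2F7 and E2F8, which act together as repressors, therefore moved in opposite directions. Score-adjusted, E2F5 (-0.42, limma adjusted p = 0.0494) and E2F7 (0.33, limma adjusted p = 0.0362) were the 2 genes of the list that passed. Named after their values were seen, E2F1, E2F2 and E2F3, the activating factors, had log2 fold changes of -0.19, -0.29 and -0.18 (limma adjusted p = 0.0016, 0.00071 and 0.0102), and the pocket protein gene RBL1, p107, had 0.01 (limma adjusted p = 0.829). With equal column totals 3 genes of the list rose and 7 fell.

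Of 26 E2F target genes of DNA replication, 5 rose, 11 fell (42.3%) and 10 did not pass, with a median of -0.06. Most changes were small, as the median absolute log2 fold change was 0.10, against 0.19 over all genes tested. POLA1, a subunit of DNA polymerase alpha, fell to 73.8% of its siNC mean, with 6985, 6628 and 6658 normalised read counts in siELF5 libraries and 9389, 9166 and 8904 in siNC libraries. CDC45, a subunit of the replicative helicase, fell to 73.6%, and RFC3, of the clamp loader, to 82.3%. In the score-adjusted model 3 genes of the list passed, 1 higher and 2 lower. The 2 lower ones were POLA1 (-0.32) and CDC45 (-0.41), and RFC3 (-0.26) did not pass (limma adjusted p = 0.0317, 0.0428 and 0.0851). CDT1, which loads the helicase, rose to 169% with a log2 fold change of 0.77, and its transcript GC content was 64.9%. Its log2 fold change was 0.26 after the GC correction and 0.06 in the score-adjusted model (limma adjusted p = 0.847). The other risen genes, TK1 (0.28), GINS1 (0.26), UHRF1 (0.16) and RFC4 (0.10, log2 fold changes), were named after their values were seen. The number that fell was 7 without siELF5 replicate 2, 7 without siNC replicate 2, 7 with equal column totals and 7 without the intensity trend.

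Of 13 MYC partners and antagonists tested, 3 rose (23.1%), 2 fell (15.4%) and 8 did not pass. Neither share was above that of all genes tested, 23.8% higher and 23.3% lower. MAX, the partner of MYC, named after its values were seen, had a log2 fold change of -0.06 (limma adjusted p = 0.385). MYCL, a relative of MYC, had 307, 334 and 296 normalised read counts in siELF5 libraries and 600.2, 613 and 567 in siNC libraries, and its log2 fold change was -0.93 (SE 0.090, limma adjusted p = 4.14e-06). It also passed in the score-adjusted model, at -0.87 (limma adjusted p = 0.0362). MXD3, a MAX-binding antagonist of MYC, had 1808, 1927 and 1699 in siELF5 libraries and 839, 900.1 and 1256 in siNC libraries. Its log2 fold change of 0.88 was 0.84 after the GC correction (limma adjusted p = 3.57e-06). In the score-adjusted model it was 0.05 (limma adjusted p = 0.905), so the 2 adjustments differ for MXD3. ZBTB17, the MYC-binding zinc finger factor MIZ1, rose by 0.40 (limma adjusted p = 0.0101), but was at 0.11 after the GC correction (limma adjusted p = 0.265) and at -0.38, the other direction, in the score-adjusted model (limma adjusted p = 0.222). MXD4, another antagonist, named after its values were seen, was the third that rose, by 0.28. MYCBP2, a large ubiquitin ligase, had a log2 fold change of -0.19 (limma adjusted p = 0.0135), and -0.0022 in the score-adjusted model (limma adjusted p = 0.995). The number that fell was 4 without siNC replicate 3, 4 without siELF5 replicate 3 and 1 without siNC replicate 2, and after the GC correction 1 gene rose and 4 fell.

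Of 20 MYC target genes, most of them for ribosome assembly, 2 rose, 11 fell (55%) and 7 did not pass, with a median of -0.15. TFRC, the transferrin receptor, had 173613, 165007 and 166161 normalised read counts in siELF5 libraries and 254696, 244896 and 237083 in siNC libraries, and its log2 fold change was -0.55 (SE 0.033, limma adjusted p = 6.79e-08). NOLC1 and GNL3, nucleolar proteins, fell to 78.3% and 78.6% of their siNC means, and RRP9, a protein of the small nucleolar ribonucleoprotein U3, to 72.2%. The 2 that rose were BOP1 (0.27) and PPAN (0.80, log2 fold changes), both named after their values were seen; without siNC replicate 2 neither passed. PPAN overlaps a read-through gene, so its reads could be split. The 11 that fell stayed 11 in number without any single library, and 3 passed in the score-adjusted model: TFRC at -0.39, GNL3 at -0.30 and RRP9 at -0.58 (limma adjusted p = 0.00363, 0.0447 and 0.0342).

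**Figure D4:**
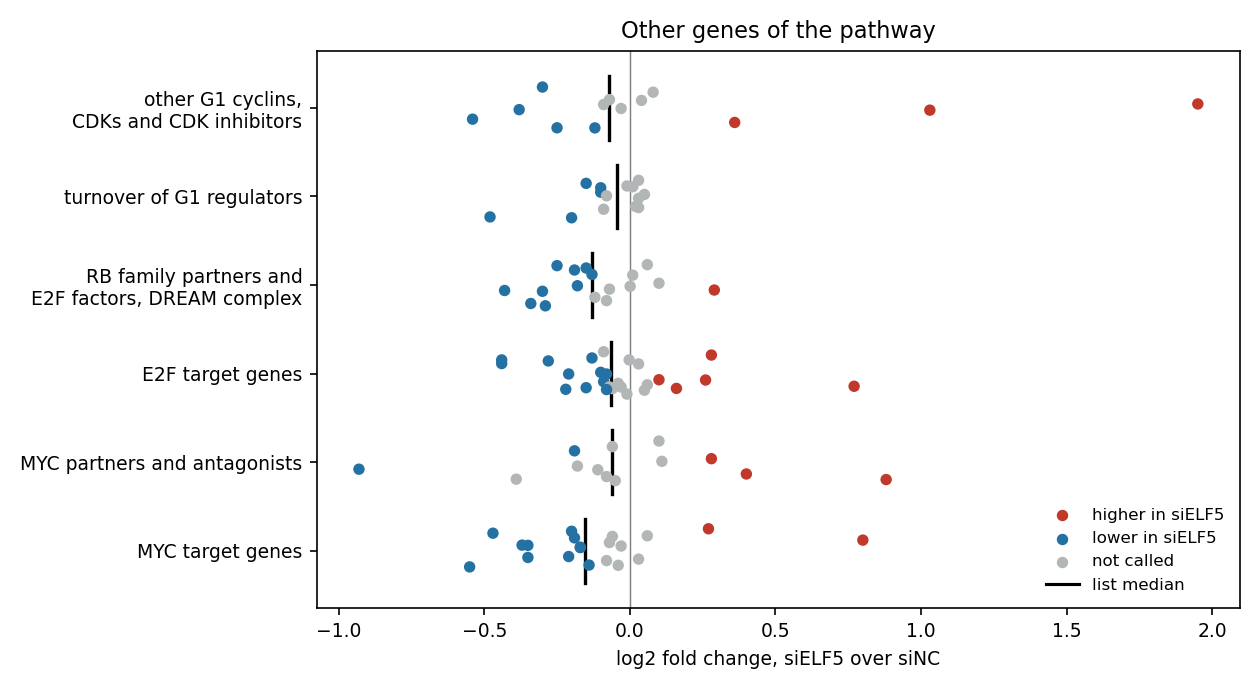
Log2 fold change of siELF5 over siNC (horizontal axis) for the other genes of the pathway, grouped by list (rows); each point is a gene, red if it rose, blue if it fell and grey if it did not pass, with small random vertical offsets, and the black bar is the list median. The medians lie between -0.15 for MYC target genes and -0.04 for turnover genes, and each list other than turnover holds genes that moved in either direction.

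The genes whose 6 log2 values, centred on their own mean, lay closest to those of CCND1 were TRIM8 (Euclidean distance 0.053), IGFBP4 (0.056) and DUSP4 (0.060), out of 11935 genes compared. After the GC correction TRIM8 (GC content 61.1%) and IGFBP4 (62.5%) were at 0.38 and 0.30, against 0.60 each without it. CCND1 was then at 0.61 and DUSP4 at 0.57, so TRIM8 and IGFBP4 were less like CCND1 under that correction. In the score-adjusted model CCND1 was at 0.42, TRIM8 at 0.34, IGFBP4 at 0.52 and DUSP4 at 0.38, where DUSP4 did not stand out in this way. DUSP4, a phosphatase that switches off MAP kinases, had 9360.4, 9389 and 8589.8 normalised read counts in siELF5 libraries and 5996, 6150.5 and 6470.3 in siNC libraries. The closest to MYC were LRRC1 (0.044), SETD4 (0.046) and ALYREF (0.049). ALYREF, an mRNA export factor, had 6917, 6612 and 6553 in siELF5 libraries and 8046, 8429 and 8344 in siNC libraries. Such closeness rests on 6 libraries in 2 groups.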

How the data were processed

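RNA-seq libraries of T47D cells (3 siELF5 and 3 siNC) came, per the labels, from the TruSeq RNA kit v2, which keeps no strand information. STAR 2.6, featureCounts 1.6.3 of Subread, DESeq2 1.22.1 and build hg19 were used, per the submitters' processing notes; the sources used here do not give their settings. The deposited per-library values are signal values, read counts divided by a size factor of each library. All non-zero values (100%) were whole multiples of a column's smallest value within 1e-06, so whole reads were recovered. The deposited log2 fold changes, test scores, p-values and adjusted p-values are the authors' own, per the file headers, and entered no test.

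The main test was limma 3.58.1 (R 4.3.3) (two-sided, variance trend on intensity, no covariates) on log2(value + 1) of the genes whose mean reached 10, with Benjamini-Hochberg adjustment over 16032 genes at 0.05. Fold changes stand on that log2(value + 1) scale and so understate the change of low genes. The method was tested on simulated counts in which 200 genes changed and no GC difference between libraries was put in. That test does not cover the GC difference seen here. On recovered reads edgeR 4.0.16 called 7578 genes and DESeq2 1.42.0 called 7292, against 7559. The other alternatives were scaling, pseudocount, filter, variance model, left-out libraries, replicate block and GC adjustment. The longest GENCODE 29 transcript gave length and GC content, found for 15426 genes tested (96.2%). The GC correction removed from each library a loess fit (span 0.3) of gene deviations against GC content. That reference is on GRCh38 and the counts on hg19, so it served for names, lengths and sequence. Replicates differed by more than sampling noise (chi-square per degree of freedom 4.37 to 12), so all 6 were used as separate libraries. The genes and lists were chosen with earlier results of these data known. From each list up to 4 called genes, those of lowest adjusted p, were named, and the 3 genes nearest in pattern to the members with the largest increase and decrease came from those with a plain symbol whose mean reached 100.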

Additional observations from a re-analysis of the deposited data

How the results depend on the processing

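Over 20 alternatives CCND1 (log2 fold change 0.42 to 0.62), CDK2 (0.29 to 0.33) and MYC (-0.45 to -0.27) passed in all 20, with the highest limma adjusted p at 0.0024, 0.0432 and 0.0114. In the score-adjusted model, whose median standard error was 0.150 against 0.063 without it, 1178 genes passed, 3 of the 10 among them, and CDK6 (0.63, adjusted p = 0.0836), RB1 (0.22, adjusted p = 0.182) and RBL2 (0.22, adjusted p = 0.151) did not. The lists then had 0 genes past the threshold for other G1 cyclins (4 at an unadjusted p under 0.05 by limma), 0 for turnover (1 at an unadjusted p), 2 for RB partners and E2F factors, 3 for E2F targets, 1 for MYC partners and 3 for MYC targets. Without the intensity trend RB1 was at 0.15 (adjusted p = 0.0518), and 10 E2F targets and 2 MYC partners passed. With quantile scaling 3 turnover genes passed, and leaving out single libraries gave 3 to 5. CDK4 passed at -0.08 with the GC correction, with (adjusted p = 0.03) and without (0.0258) the replicate block.

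CCND3, CDKN1B and CDKN2C changed sign under some alternatives and passed in none of the 20. CCND3 was at -0.02 without siNC replicate 1 (-0.02 to 0.08 over single libraries left out), -0.0029 with the GC correction, -0.0029 with the replicate block as well and -0.25 in the score-adjusted model. CDKN1B was at 0.01 with equal column totals and from -0.07 to 0.01 when single libraries were left out. CDKN2C was at -0.05 with the GC correction, also with the replicate block, and -0.01 in the score-adjusted model. The difference in the CCND1 share was 5.81 percentage points with coding lengths, that in the CDK6 share 1.12, and that in the RBL2 share 0.383 with the GC correction and from -0.763 to 0.482 without single libraries.

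Same-numbered libraries showed no shared deviation (correlations of their deviations 0.01, -0.03 and -0.06). This cannot show whether they were handled together, and the labels do not say that replicate numbers pair the libraries. With the replicate block 7174 genes passed, and the same 6 of the 10, so the block changed no call among them. The causes were not tested.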
